A study of Homo sapiens with 24 samples.

Results

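Mitosis genes, whose products build the spindle, attach chromosomes to it and take a cell through G2 and M phase, were followed over 8 culture conditions of HepaRG cells. The set was a list of 48 genes of G2/M, the spindle and the kinetochore, each found through the RefSeq transcript that an array probe is assigned to, among 20503 genes with a symbol. A probe was matched for 47 of them, and all 47 passed the filter on dim signals, among 24648 genes tested, transcripts without a symbol included. UBE2C was not analysed here. The probes used for the 47 genes were well above background on all 24 arrays and had no saturated spot, so none of them passed the filter through 1 condition alone.

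HepaRG is an established human liver line, derived from a hepatocellular carcinoma, that can be kept as progenitors or turned into hepatocyte-like cells. The study describes the cells of its transcriptome as progenitors. RNA was measured on one-colour microarrays, with 3 arrays for each condition, and per the study's methods the cultures behind the 3 were independent. Cells were untransfected, electroporated in suspension with 80 pmol of control siRNA or of siRNA against CTNNB1 (the gene of β-catenin), or untransfected and given mouse FZD8_CRD at 300 ng/ml. Each of these was cultured without and with mouse Wnt3a at 200 ng/ml, and both proteins were given for 72 h in serum-free medium. Below, untransfected cells are those without FZD8_CRD, and those given it are named by it. Wnt3a is a ligand of the Wnt pathway, and FZD8_CRD is the soluble ligand-binding domain of a Wnt receptor, which captures Wnt proteins outside the cell. Cells for transfection were first passaged at low density, and whether the untransfected cells of these arrays were replated in the same way is not clear from the sources used here, so siRNA and handling cannot be told apart. Each of 3 slides held all 8 conditions, and the replicate number is the slide number. A condition had the same place on every slide, so place and condition cannot be told apart either.

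Dividing cells make most of these transcripts late in the cell cycle and lose them after division. In resting cells the DREAM complex keeps many of the genes silent, and in cycling cells MYBL2 (B-MYB) and FOXM1 switch them on. Mature hepatocytes rarely divide, while liver progenitors keep dividing in culture.

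Promoters of G2/M genes often carry a cell cycle homology region (searched as TTTGAA or TTCGAA) and CCAAT boxes, the elements read by DREAM, MYBL2 and FOXM1 complexes and by NF-Y. Both were searched on both strands in RefSeq windows from 250 bases before to 50 after the start site (build GRCh38.p14, the first window listed for a gene), which were matched for 41 of the 48 genes. The homology region was found in 28 of these windows (68.3%) and in 16.6% of 27305 windows of all genes. CCAAT was found in 31 (75.6%) and in 35.7% of all windows, and both together in 24 (58.5%) against 6.58%. A match describes the letters of a window and is not a binding site. The last 120 bases before the start are shown for 5 genes whose signals are given below, to let both elements be seen in place, in lower case with each match of either element in capitals. PLK1, MKI67 and INCENP hold both kinds of match in this stretch, with 1, 2 and 1 of the homology region and 1, 2 and 3 of CCAAT, and in MKI67 the last run of capitals holds 1 of each, overlapping. CCNB1 and CENPF hold 2 and 3 CCAAT matches there and none of the homology region. CDK1, AURKB, NDC80 and MYBL2, whose signals are also given below, hold no match of either element in this stretch and are not shown.
PLK1 (chr16:23678769-23678888, plus strand): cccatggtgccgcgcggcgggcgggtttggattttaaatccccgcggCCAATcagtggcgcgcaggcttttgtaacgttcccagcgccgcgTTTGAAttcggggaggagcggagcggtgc
MKI67 (chr10:128126424-128126543, minus strand): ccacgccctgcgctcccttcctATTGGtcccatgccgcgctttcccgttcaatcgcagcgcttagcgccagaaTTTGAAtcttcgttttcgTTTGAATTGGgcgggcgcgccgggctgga
INCENP (chr11:62123891-62124010, plus strand): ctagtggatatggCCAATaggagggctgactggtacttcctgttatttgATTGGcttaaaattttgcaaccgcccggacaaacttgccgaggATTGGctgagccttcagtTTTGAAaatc
CCNB1 (chr5:69167030-69167149, plus strand): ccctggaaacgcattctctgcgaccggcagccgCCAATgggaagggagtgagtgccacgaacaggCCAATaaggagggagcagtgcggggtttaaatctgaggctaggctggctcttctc
CENPF (chr1:214603075-214603194, plus strand): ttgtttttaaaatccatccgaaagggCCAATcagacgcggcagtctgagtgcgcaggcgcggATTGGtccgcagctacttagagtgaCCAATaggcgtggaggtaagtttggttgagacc

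The knockdown was checked first. On a log2 scale where 0 is the upper quartile of an array's signals, used for all signals here and given for slides 1, 2 and 3 in order, CTNNB1 read 3.35, 3.37 and 3.51 with control siRNA and 0.26, 0.35 and 0.52 with its own siRNA. The groups lay far apart. In limma, with p-values adjusted by Benjamini-Hochberg over all 24648 genes, CTNNB1 changed by -3.03 (SE 0.17, adjusted p = 1.17e-09) without Wnt3a and -3.02 (SE 0.17, adjusted p = 7.75e-10) with it, SE being the standard error of a log2 change between 2 conditions of 3 arrays. A gene was called where the adjusted p was under 0.05. The liver label was read against marker genes. All 9 hepatocyte markers used were well above background on all 24 arrays, as were 5 of 6 biliary or progenitor markers, whereas EPCAM, the remaining progenitor marker, was on 1 array. Of markers of other cells, 4 of 7 fibroblast, 3 of 4 leukocyte and 4 of 5 endothelial ones were also well above background on all arrays, and the fibroblast marker THY1 was on none. Such a signal shows a probe above its background and not which cells it came from.

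Each array was set against the mean of every condition, itself left out, by the Pearson r over all genes with their means taken out. Of 24 arrays, 5 lay closer to a condition other than their own. The FZD8_CRD array of slide 3 had r 0.743 with FZD8_CRD plus Wnt3a and 0.169 with its own condition, so it went against its label. Untransfected cells with Wnt3a were closest to untransfected cells on slides 1 and 3 (r 0.658 and 0.603, own 0.579 and 0.213) and to control siRNA with Wnt3a on slide 2 (r 0.346, own 0.123). The array of CTNNB1 siRNA with Wnt3a on slide 3 was closest to CTNNB1 siRNA without it (r 0.457, own 0.301). All arrays were kept, and each comparison that uses one of these 5 is also given by its count of called mitosis genes without it.

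Untransfected cells stood apart as the condition with low mitosis genes. With each gene's mean over the 24 arrays taken out, the median of the 47 genes was -1.22, -0.95 and -0.72 in untransfected cells and -0.82, -0.15 and -0.93 in untransfected cells with Wnt3a. It was 0.10, 0.01 and 0.14 with control siRNA, 0.07, 0.24 and 0.04 with CTNNB1 siRNA and 0.74, 0.84 and 0.25 with FZD8_CRD. In Wnt3a medium the same 3 treatments gave 0.02, 0.22 and 0.11, then 0.49, 0.36 and 0.16, then 0.37, 0.36 and 0.15. All 18 arrays of siRNA or FZD8_CRD lay above 0 and all 6 others below it. FZD8_CRD without Wnt3a was highest on every slide, by the least on slide 3. Untransfected cells with Wnt3a stood nearest to the treated arrays on slide 2. In bulk samples of this kind, fewer dividing cells and less RNA per cell cannot be told apart.

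**Figure D1:**
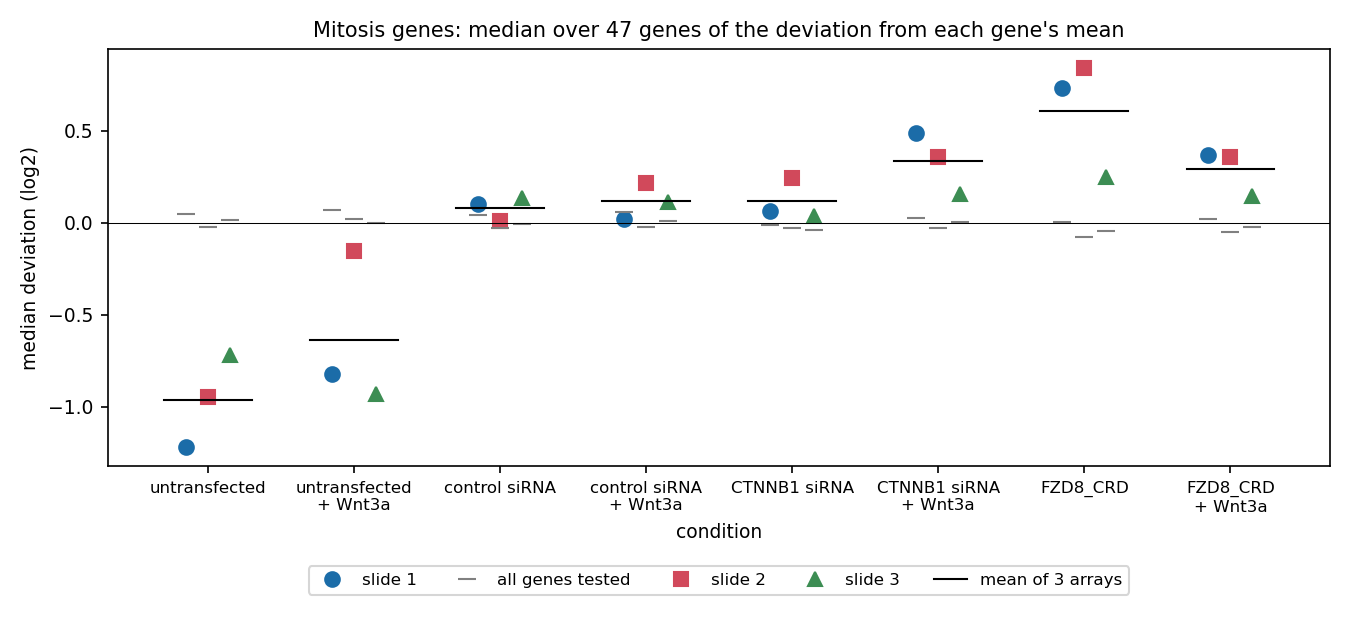
Median over the 47 mitosis genes of the log2 deviation from each gene's mean over 24 arrays (vertical) in 8 conditions (horizontal), with 1 symbol per slide, a black line for the mean of the 3 arrays and a grey dash for the median of all genes. The 6 arrays of untransfected cells without FZD8_CRD lie below 0 and the 18 other arrays above it.

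Control siRNA was compared with no transfection, a comparison in which transfection, handling and place on the slide cannot be told apart. Without Wnt3a, 46 of 47 mitosis genes were called higher and 0 lower, where 12.3% of all genes were called higher. Their median log2 change was 1.04, with a range of -0.38 to 1.37, beside -0.03 for all genes. Within slides 1, 2 and 3 the members' median was 1.26, 0.98 and 0.86, and 46 members were higher on every slide, as were 28.9% of all genes. With a block for the slide 47 were called, of which CCNB2 was lower. Scaling to the 7 spike-in probes shifted the median of all genes to -0.31 and left the members at 1.07 relative to it, with 7 called. Such scaling moves all genes of an array by the same factor. A value relative to all genes is therefore nearly fixed under it, here and below, and is not a check of the result. Without slide 1, 8 were called.

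With Wnt3a in both arms of that comparison, 41 of 47 mitosis genes were called higher and 0 lower, where 5.44% of all genes were called higher. Their median log2 change was 0.77, with a range of 0.15 to 1.14, beside -0.02 for all genes. Within slides 1, 2 and 3 the members' median was 0.86, 0.39 and 1.05, and 43 members were higher on every slide, as were 23.7% of all genes. With a block for the slide 44 were called, all higher. Spike-in scaling shifted the median of all genes to 0.25 and left the members at 0.79 relative to it, with 7 called. Leaving out slide 1 gave 0 calls and slide 3 17. Leaving out single arrays with Wnt3a gave 10 (untransfected, slide 1), 44 (untransfected, slide 2), 20 (untransfected, slide 3) and 15 (control siRNA, slide 2). A limma fit to only these 6 arrays called 0. The fit to all arrays gives a gene the same spread in all 8 conditions. However, the members' median by array had a standard deviation of 0.42 in untransfected cells with Wnt3a and 0.10 with control siRNA and Wnt3a. The SE may thus be too small in comparisons with that untransfected condition, and the 41 calls rest on the shared spread. In that fit 44 members had an unadjusted p under 0.05, for which no share of all genes is given.

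FZD8_CRD was compared with untransfected cells to read the effect of adding this protein. Without added Wnt3a, 46 of 47 mitosis genes were called higher and 0 lower, where 19.7% of all genes were called higher. Their median log2 change was 1.60, with a range of -0.17 to 2.00, beside -0.09 for all genes. Within slides 1, 2 and 3 the members' median was 1.98, 1.79 and 1.02, and 46 members were higher on every slide, as were 28.1% of all genes. With a block for the slide 46 were called, all higher. Spike-in scaling shifted the median of all genes to -0.46 and left the members at 1.67 relative to it, with 44 called. Without the FZD8_CRD array of slide 3, 46 were called. This comparison and that of control siRNA share the untransfected arrays and are not independent.

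With Wnt3a in both arms of the FZD8_CRD comparison, 43 of 47 mitosis genes were called higher and 0 lower, where 18.2% of all genes were called higher. Their median log2 change was 0.91, with a range of 0.23 to 1.51, beside -0.08 for all genes. Within slides 1, 2 and 3 the members' median was 1.24, 0.51 and 1.05, and 45 members were higher on every slide, as were 28.4% of all genes. With a block for the slide 44 were called, all higher. Spike-in scaling shifted the median of all genes to -0.15 and left the members at 0.98 relative to it, with 17 called, and 24 were called without slide 1. Without the untransfected array with Wnt3a of slide 1, 2 or 3, 39, 46 and 38 were called.

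**Figure D2:**
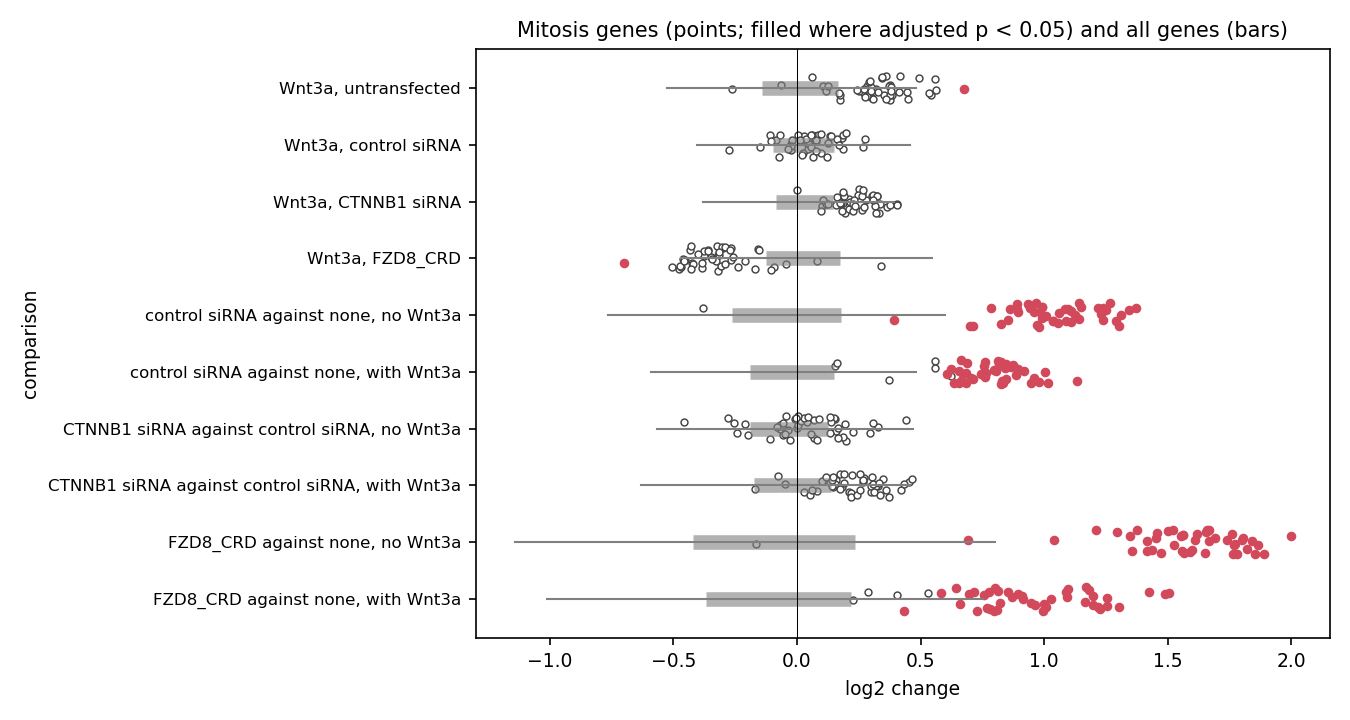
Log2 change of each of the 47 mitosis genes (points, filled where the adjusted p was under 0.05) in 10 comparisons, with all genes as a thick bar from the 25th to the 75th percentile and a thin line from the 5th to the 95th. In the 4 comparisons with untransfected cells the points lie right of 0 except CCNB2 without Wnt3a, and in the others they lie nearer to 0.

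Hepatocyte markers (ALB, APOA1, APOB, TTR, HNF4A, FGB, SERPINA1, TF and CYP3A4) were called lower in the same comparisons, all or most of them. Of the 9, 9 were called lower with control siRNA and 9 with FZD8_CRD without Wnt3a, and 5 and 6 with Wnt3a, where 10.1%, 22.2%, 3.59% and 18.9% of all genes were called lower. None was called higher. Their median changes in these comparisons were -1.85, -2.33, -1.32 and -1.22. With FZD8_CRD and Wnt3a they ranged from -3.54 to 1.41. TTR, the highest, and APOA1 stood above untransfected cells with Wnt3a without being called, APOA1 with a mean of 3.44 against 2.89. Their median deviation by array was 2.53, 1.52 and 0.75 in untransfected cells, -0.16, -0.32 and -0.22 with control siRNA, 0.68, -0.11 and 0.52 with CTNNB1 siRNA and -0.61, -1.16 and -0.24 with FZD8_CRD. In Wnt3a medium it was 1.01, -0.21 and 1.11 in untransfected cells, -0.63, -1.01 and -0.96 with control siRNA, -0.69, -0.25 and 0.24 with CTNNB1 siRNA and -0.32, -0.37 and -0.42 with FZD8_CRD. The untransfected array with Wnt3a on slide 2, which was high in mitosis genes for its condition, was low in hepatocyte markers for it. None of the 9 was at background on any array. In the same order of comparisons, 1, 3, 1 and 3 of 5 tested biliary or progenitor markers were called lower and 0, 1, 0 and 1 higher. Of 6 fibroblast markers 2, 2, 1 and 1 were lower and 0, 1, 0 and 1 higher, of 4 leukocyte markers 0, 1, 0 and 1 lower and 0, 0, 0 and 0 higher, and of 5 endothelial markers 0, 1, 0 and 1 lower and 0, 0, 0 and 1 higher. Those called higher were KRT19 and ACTA2 in both FZD8_CRD comparisons and TEK with Wnt3a. TEK was well above background on only 5 of 24 arrays. It read -6.13, -6.11 and -6.13 in untransfected cells with Wnt3a, at or near the lowest value given to a dim spot. The TEK call is therefore not read as a change. The part of these markers in the result was not tested.

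Entry into mitosis was covered by CDK1, its cyclins CCNA2, CCNB1 and CCNB2, the phosphatase CDC25C that activates CDK1, and the kinase PLK1. CDK1, the kinase that drives cells into mitosis, read 1.15, 1.26 and 1.61 in untransfected cells, 2.40, 2.31 and 2.59 with control siRNA, 2.52, 2.69 and 2.57 with CTNNB1 siRNA and 3.22, 3.40 and 2.88 with FZD8_CRD. CDK1 was lowest on the untransfected arrays, with no overlap, and FZD8_CRD was above every siRNA array. CDK1 in Wnt3a medium read 1.48, 2.12 and 1.39 in untransfected cells, 2.34, 2.53 and 2.51 with control siRNA, 3.09, 2.90 and 2.75 with CTNNB1 siRNA and 2.90, 2.87 and 2.76 with FZD8_CRD. No other CDK1 array came down to the untransfected ones, which were highest on slide 2. Against untransfected cells CDK1 differed by 1.09 (adjusted p = 0.000192) with control siRNA and 1.82 (adjusted p = 2.03e-07) with FZD8_CRD, and with Wnt3a in both arms by 0.80 (adjusted p = 0.00639) and 1.18 (adjusted p = 1.59e-05), each with SE 0.16. The kept probes of CDK1 had the same sign but differed by 0.60 for FZD8_CRD with Wnt3a and by 0.28 for control siRNA without it. Both were the largest such differences among 12 members with several kept probes. CCNB1, the cyclin that carries CDK1 into the nucleus, read 2.84, 3.17 and 3.28 in untransfected cells, 4.06, 4.08 and 4.09 with control siRNA, 3.99, 4.15 and 3.90 with CTNNB1 siRNA and 4.93, 5.04 and 4.32 with FZD8_CRD. The untransfected CCNB1 arrays lay apart at the bottom, and FZD8_CRD was above every siRNA array. The CCNB1 signals with Wnt3a were 3.10, 3.85 and 3.10 in untransfected cells, 3.99, 4.28 and 4.21 with control siRNA, 4.32, 4.24 and 4.0 with CTNNB1 siRNA and 4.51, 4.40 and 4.23 with FZD8_CRD. All treated CCNB1 arrays stood above the untransfected ones, which were highest on slide 2. CCNB1 differences from untransfected cells, each with SE 0.18, were 0.98 (adjusted p = 0.000874) for control siRNA and 1.67 (adjusted p = 1.22e-06) for FZD8_CRD, and under Wnt3a 0.81 (adjusted p = 0.0115) and 1.03 (adjusted p = 0.00021). PLK1, a kinase of centrosome maturation and mitotic entry, read -0.24, -0.01 and 0.12 in untransfected cells, 1.31, 1.29 and 1.18 with control siRNA, 1.41, 1.59 and 1.29 with CTNNB1 siRNA and 2.00, 2.07 and 1.32 with FZD8_CRD. PLK1 was lowest on the untransfected arrays, with no overlap, and every FZD8_CRD array but that of slide 3 was above all siRNA arrays. Under Wnt3a, PLK1 signals were -0.03, 0.70 and 0.07 in untransfected cells, 1.12, 1.65 and 1.37 with control siRNA, 1.82, 1.65 and 1.57 with CTNNB1 siRNA and 1.68, 1.42 and 1.40 with FZD8_CRD. No other PLK1 array came down to the untransfected ones, which were highest on slide 2. The differences of PLK1 from untransfected cells were 1.30 (adjusted p = 0.000171) with control siRNA and 1.84 (adjusted p = 6.65e-07) with FZD8_CRD, and in Wnt3a medium 1.14 (adjusted p = 0.00249) and 1.25 (adjusted p = 4.34e-05), with SE 0.19 for each.

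CCNA2, the cyclin of S and G2 phase, rose in all 4 comparisons with untransfected cells, by 1.25 and 1.78 for control siRNA and FZD8_CRD and by 0.90 and 1.16 with Wnt3a. CDC25C was also called in all 4, by 0.99, 1.36, 0.75 and 0.65 in the same order. CCNB2, the other B-type cyclin, was singled out after its values were seen, and whether its probe reads the intended transcript was not checked. Its signals were -3.76, -3.67 and -3.88 in untransfected cells, -3.95, -4.29 and -4.21 with control siRNA, -3.62, -3.76 and -3.75 with CTNNB1 siRNA and -3.93, -3.71 and -4.17 with FZD8_CRD. With control siRNA CCNB2 lay lower on every slide, and with CTNNB1 siRNA or FZD8_CRD it overlapped the untransfected arrays. The differences were -0.38 (adjusted p = 0.0985, not called) with control siRNA and -0.17 (adjusted p = 0.431, not called) with FZD8_CRD. With the slide as a block the adjusted p for control siRNA was 0.0454, so that CCNB2 was called lower there. With FZD8_CRD the sign turned under quantile normalization, to 0.07. With Wnt3a, CCNB2 read -4.16, -3.82 and -4.12 in untransfected cells, -3.89, -3.87 and -3.88 with control siRNA, -3.50, -3.61 and -4.01 with CTNNB1 siRNA and -3.81, -3.40 and -3.59 with FZD8_CRD. Only with FZD8_CRD did all arrays clear the untransfected ones, narrowly, and the differences for control siRNA and FZD8_CRD were 0.15 (adjusted p = 0.655, not called) and 0.43 (adjusted p = 0.0381), each with SE 0.16. Over the 24 arrays the Pearson r of CCNB2 with the median profile of the 47 genes, itself included, was 0.224, the lowest of the 47.

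The chromosomal passenger complex, which corrects faulty attachments, joins the kinase AURKB to INCENP, BIRC5 and CDCA8, and the related kinase AURKA acts at the spindle poles. All 5 genes were called in all 4 comparisons with untransfected cells. AURKB, the kinase of the complex, read -0.87, -0.64 and -0.59 in untransfected cells, 0.47, 0.43 and 0.37 with control siRNA, 0.68, 0.78 and 0.49 with CTNNB1 siRNA and 1.15, 1.18 and 0.89 with FZD8_CRD. The untransfected AURKB arrays lay apart at the bottom, and FZD8_CRD was above every siRNA array. AURKB in Wnt3a medium read -0.61, 0.08 and -0.66 in untransfected cells, 0.43, 0.76 and 0.63 with control siRNA, 1.16, 0.98 and 0.72 with CTNNB1 siRNA and 1.17, 1.02 and 0.89 with FZD8_CRD. All treated AURKB arrays stood above the untransfected ones, which were highest on slide 2. Against untransfected cells AURKB differed by 1.13 (adjusted p = 0.000143) with control siRNA and 1.77 (adjusted p = 2.15e-07) with FZD8_CRD, and with Wnt3a in both arms by 1.00 (adjusted p = 0.00202) and 1.42 (adjusted p = 2.41e-06), each with SE 0.16. INCENP, its scaffold, read -0.85, -0.40 and -0.49 in untransfected cells, 0.22, 0.42 and 0.28 with control siRNA, 0.42, 0.51 and 0.55 with CTNNB1 siRNA and 1.01, 1.10 and 0.94 with FZD8_CRD. INCENP was lowest on the untransfected arrays, with no overlap, and FZD8_CRD was above every siRNA array. The INCENP signals with Wnt3a were -0.30, 0.61 and -0.42 in untransfected cells, 0.50, 0.52 and 0.73 with control siRNA, 0.73, 0.64 and 0.85 with CTNNB1 siRNA and 0.97, 0.83 and 0.54 with FZD8_CRD. INCENP did not rise above the highest untransfected array (slide 2) with control siRNA on slides 1 and 2 and with FZD8_CRD on slide 3. INCENP differences from untransfected cells, each with SE 0.18, were 0.89 (adjusted p = 0.00183) for control siRNA and 1.60 (adjusted p = 1.88e-06) for FZD8_CRD, and under Wnt3a 0.62 (adjusted p = 0.0398) and 0.82 (adjusted p = 0.0016). AURKA, the kinase of the spindle poles, read 1.58, 1.88 and 2.12 in untransfected cells, 2.90, 2.84 and 2.96 with control siRNA, 2.87, 2.94 and 2.88 with CTNNB1 siRNA and 3.55, 3.50 and 2.95 with FZD8_CRD. The untransfected AURKA arrays lay apart at the bottom, and every FZD8_CRD array but that of slide 3 was above all siRNA arrays. Under Wnt3a, AURKA signals were 1.76, 2.27 and 1.86 in untransfected cells, 2.71, 2.89 and 2.77 with control siRNA, 3.19, 2.98 and 2.83 with CTNNB1 siRNA and 3.03, 2.83 and 2.72 with FZD8_CRD. All treated AURKA arrays stood above the untransfected ones, which were highest on slide 2. The differences of AURKA from untransfected cells were 1.04 (adjusted p = 0.000192) with control siRNA and 1.47 (adjusted p = 7.72e-07) with FZD8_CRD, and in Wnt3a medium 0.82 (adjusted p = 0.0047) and 0.89 (adjusted p = 0.000152), with SE 0.15 for each. BIRC5 (survivin) and CDCA8 (borealin) changed by 0.79 and 1.10 with control siRNA and by 1.44 and 1.59 with FZD8_CRD.

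The spindle checkpoint delays anaphase until every chromosome is attached. BUB1, a kinase that recruits checkpoint proteins, read 0.90, 1.36 and 1.48 in untransfected cells, 2.31, 2.28 and 2.33 with control siRNA, 2.31, 2.48 and 2.18 with CTNNB1 siRNA and 3.04, 3.14 and 2.42 with FZD8_CRD. BUB1 was lowest on the untransfected arrays, with no overlap, and every FZD8_CRD array but that of slide 3 was above all siRNA arrays. BUB1 in Wnt3a medium read 1.36, 2.03 and 1.16 in untransfected cells, 2.20, 2.36 and 2.29 with control siRNA, 2.74, 2.57 and 2.35 with CTNNB1 siRNA and 2.55, 2.47 and 2.27 with FZD8_CRD. No other BUB1 array came down to the untransfected ones, which were highest on slide 2. Against untransfected cells BUB1 differed by 1.06 (adjusted p = 0.000792) with control siRNA and 1.62 (adjusted p = 2.98e-06) with FZD8_CRD, and with Wnt3a in both arms by 0.77 (adjusted p = 0.0192) and 0.91 (adjusted p = 0.00107), each with SE 0.20. BUB1B, the checkpoint protein BUBR1, read 0.89, 1.03 and 1.38 in untransfected cells, 2.43, 2.39 and 2.50 with control siRNA, 2.31, 2.51 and 2.30 with CTNNB1 siRNA and 2.95, 3.20 and 2.75 with FZD8_CRD. The untransfected BUB1B arrays lay apart at the bottom, and FZD8_CRD was above every siRNA array. The BUB1B signals with Wnt3a were 1.5, 2.27 and 1.21 in untransfected cells, 2.47, 2.63 and 2.42 with control siRNA, 2.96, 2.79 and 2.58 with CTNNB1 siRNA and 2.82, 2.86 and 2.58 with FZD8_CRD. All treated BUB1B arrays stood above the untransfected ones, which were highest on slide 2. BUB1B differences from untransfected cells, each with SE 0.19, were 1.34 (adjusted p = 0.000143) for control siRNA and 1.87 (adjusted p = 5.88e-07) for FZD8_CRD, and under Wnt3a 0.84 (adjusted p = 0.0105) and 1.09 (adjusted p = 0.000159). TTK, the kinase that starts checkpoint signalling, was called in all 4 comparisons, with changes of 0.84 for control siRNA with Wnt3a up to 1.80 for FZD8_CRD without it.

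MAD2L1, which holds back the activator of anaphase, read 0.53, 0.74 and 1.01 in untransfected cells, 1.65, 1.62 and 1.69 with control siRNA, 1.70, 1.81 and 1.54 with CTNNB1 siRNA and 2.53, 2.57 and 2.15 with FZD8_CRD. MAD2L1 was lowest on the untransfected arrays, with no overlap, and FZD8_CRD was above every siRNA array. Under Wnt3a, MAD2L1 signals were 0.50, 1.13 and 0.82 in untransfected cells, 1.43, 1.99 and 1.79 with control siRNA, 2.23, 2.02 and 1.73 with CTNNB1 siRNA and 2.39, 2.40 and 2.18 with FZD8_CRD. No other MAD2L1 array came down to the untransfected ones, which were highest on slide 2. The differences of MAD2L1 from untransfected cells were 0.89 (adjusted p = 0.000903) with control siRNA and 1.66 (adjusted p = 5.95e-07) with FZD8_CRD, and in Wnt3a medium 0.92 (adjusted p = 0.00436) and 1.51 (adjusted p = 2.45e-06), with SE 0.17 for each. BUB3, a carrier of BUB1 and BUB1B at the kinetochore, read 2.53, 2.76 and 3.03 in untransfected cells, 3.11, 3.13 and 3.26 with control siRNA, 3.05, 3.31 and 3.25 with CTNNB1 siRNA and 3.40, 3.58 and 3.41 with FZD8_CRD. The untransfected BUB3 arrays lay apart at the bottom, and FZD8_CRD was above every siRNA array. BUB3 in Wnt3a medium read 3.02, 3.29 and 2.92 in untransfected cells, 3.23, 3.19 and 3.31 with control siRNA, 3.40, 3.43 and 3.35 with CTNNB1 siRNA and 3.29, 3.39 and 3.24 with FZD8_CRD. BUB3 did not rise above the highest untransfected array (slide 2) with control siRNA on slides 1 and 2 and with FZD8_CRD on slides 1 and 3. Against untransfected cells BUB3 differed by 0.39 (adjusted p = 0.0106) with control siRNA and 0.69 (adjusted p = 3.33e-05) with FZD8_CRD, and with Wnt3a in both arms by 0.16 (adjusted p = 0.406, not called) and 0.23 (adjusted p = 0.102, not called), each with SE 0.11. BUB3 had the smallest called changes of the 47 without Wnt3a, and with Wnt3a it was not called. With the mean of its probes in place of the brightest, the BUB3 differences with Wnt3a were 0.29 (SE 0.09, adjusted p = 0.0588) for control siRNA and 0.46 (SE 0.09, adjusted p = 0.000622) for FZD8_CRD, the latter called.

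Kinetochore genes build the structure by which a chromosome holds microtubules. NDC80, which binds microtubules, read 2.40, 2.59 and 2.77 in untransfected cells, 3.55, 3.49 and 3.63 with control siRNA, 3.59, 3.76 and 3.55 with CTNNB1 siRNA and 4.25, 4.38 and 3.79 with FZD8_CRD. NDC80 was lowest on the untransfected arrays, with no overlap, and FZD8_CRD was above every siRNA array. The NDC80 signals with Wnt3a were 2.76, 3.57 and 2.69 in untransfected cells, 3.58, 3.71 and 3.77 with control siRNA, 3.99, 3.91 and 3.85 with CTNNB1 siRNA and 3.92, 3.93 and 3.77 with FZD8_CRD. No other NDC80 array came down to the untransfected ones, which were highest on slide 2. NDC80 differences from untransfected cells, each with SE 0.17, were 0.97 (adjusted p = 0.000588) for control siRNA and 1.55 (adjusted p = 1.18e-06) for FZD8_CRD, and under Wnt3a 0.69 (adjusted p = 0.0168) and 0.87 (adjusted p = 0.00051). CENPF, a large protein of the outer kinetochore, read 3.91, 4.21 and 4.50 in untransfected cells, 5.18, 5.10 and 5.27 with control siRNA, 5.06, 5.23 and 5.08 with CTNNB1 siRNA and 5.56, 5.72 and 4.96 with FZD8_CRD. The untransfected CENPF arrays lay apart at the bottom, and every FZD8_CRD array but that of slide 3 was above all siRNA arrays. Under Wnt3a, CENPF signals were 4.31, 5.03 and 4.18 in untransfected cells, 5.08, 5.12 and 5.15 with control siRNA, 5.38, 5.32 and 5.22 with CTNNB1 siRNA and 4.98, 4.96 and 4.79 with FZD8_CRD. CENPF did not rise above the highest untransfected array (slide 2) with FZD8_CRD on slides 1, 2 and 3. The differences of CENPF from untransfected cells were 0.98 (adjusted p = 0.000962) with control siRNA and 1.21 (adjusted p = 3.49e-05) with FZD8_CRD, and in Wnt3a medium 0.61 (adjusted p = 0.0456) and 0.40 (adjusted p = 0.0972, not called), with SE 0.19 for each. CENPA, the histone variant that marks centromeres, read -0.57, -0.41 and -0.06 in untransfected cells, 0.63, 0.62 and 0.72 with control siRNA, 0.79, 0.93 and 0.84 with CTNNB1 siRNA and 1.51, 1.64 and 1.23 with FZD8_CRD. CENPA was lowest on the untransfected arrays, with no overlap, and FZD8_CRD was above every siRNA array. CENPA in Wnt3a medium read -0.07, 0.45 and -0.29 in untransfected cells, 0.72, 0.93 and 0.89 with control siRNA, 1.16, 1.02 and 1.01 with CTNNB1 siRNA and 1.31, 1.17 and 1.11 with FZD8_CRD. No other CENPA array came down to the untransfected ones, which were highest on slide 2. Against untransfected cells CENPA differed by 1.01 (adjusted p = 0.000192) with control siRNA and 1.80 (adjusted p = 1.3e-07) with FZD8_CRD, and with Wnt3a in both arms by 0.82 (adjusted p = 0.00437) and 1.17 (adjusted p = 8.28e-06), each with SE 0.15.

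CENPI, a protein of the inner kinetochore, read -3.77, -3.57 and -3.06 in untransfected cells, -2.14, -2.10 and -2.05 with control siRNA, -2.58, -2.45 and -2.63 with CTNNB1 siRNA and -1.76, -1.62 and -1.74 with FZD8_CRD. The untransfected CENPI arrays lay apart at the bottom, and FZD8_CRD was above every siRNA array. The CENPI signals with Wnt3a were -3.18, -2.70 and -3.47 in untransfected cells, -2.25, -2.10 and -2.16 with control siRNA, -1.99, -2.31 and -2.36 with CTNNB1 siRNA and -1.83, -1.65 and -1.96 with FZD8_CRD. All treated CENPI arrays stood above the untransfected ones, which were highest on slide 2. CENPI differences from untransfected cells, each with SE 0.17, were 1.37 (adjusted p = 7.37e-05) for control siRNA and 1.76 (adjusted p = 5.02e-07) for FZD8_CRD, and under Wnt3a 0.95 (adjusted p = 0.00452) and 1.30 (adjusted p = 1.36e-05). NUF2, SPC24 and SPC25, partners of NDC80, and the motor CENPE were called in all 4 comparisons, with changes of 0.93 to 1.24 for control siRNA and 1.42 to 1.89 for FZD8_CRD.

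Spindle genes were the largest group, with the motors KIF2C, KIF4A, KIF11, KIF14, KIF18A, KIF20A and KIF23 and, among proteins that organise microtubules and poles, TPX2, PRC1, ASPM, NUSAP1, DLGAP5, HMMR, NEK2 and CKAP2. All 15 were called with control siRNA and with FZD8_CRD without Wnt3a. With Wnt3a, 12 of 15 were called with control siRNA (all but KIF20A, ASPM and NEK2) and 14 with FZD8_CRD (all but NEK2). With the slide as a block these were called too, with adjusted p of 0.0175, 0.0254 and 0.034 for control siRNA and 0.0161 for FZD8_CRD. Averaging the probes of a gene, ASPM was 0.64 (SE 0.17, adjusted p = 0.0253) for control siRNA and NEK2 0.61 (SE 0.22, adjusted p = 0.0327) for FZD8_CRD, both called. Over all 47 genes such averaging called 40 for control siRNA with Wnt3a, beside 41 with the brightest probe, so other calls were lost. For FZD8_CRD with Wnt3a it called 45, beside 43. KIF20A, a motor of the central spindle, read 1.10, 1.51 and 1.56 in untransfected cells, 2.36, 2.40 and 2.28 with control siRNA, 2.38, 2.52 and 2.34 with CTNNB1 siRNA and 3.06, 3.06 and 2.30 with FZD8_CRD. KIF20A was lowest on the untransfected arrays, with no overlap, and every FZD8_CRD array but that of slide 3 was above all siRNA arrays. Under Wnt3a, KIF20A signals were 1.67, 2.24 and 1.36 in untransfected cells, 2.36, 2.50 and 2.29 with control siRNA, 2.68, 2.64 and 2.39 with CTNNB1 siRNA and 2.56, 2.31 and 2.16 with FZD8_CRD. KIF20A did not rise above the highest untransfected array (slide 2) with FZD8_CRD on slide 3. The differences of KIF20A from untransfected cells were 0.96 (adjusted p = 0.00169) with control siRNA and 1.42 (adjusted p = 1.17e-05) with FZD8_CRD, and in Wnt3a medium 0.62 (adjusted p = 0.0534, not called) and 0.58 (adjusted p = 0.0246), with SE 0.20 for each. KIF11, the motor that pushes the poles apart, read 0.67, 0.88 and 1.18 in untransfected cells, 2.18, 2.16 and 2.19 with control siRNA, 2.21, 2.34 and 2.14 with CTNNB1 siRNA and 2.70, 2.85 and 2.16 with FZD8_CRD. The untransfected KIF11 arrays lay apart at the bottom, and every FZD8_CRD array but that of slide 3 was above all siRNA arrays. KIF11 in Wnt3a medium read 1.19, 1.90 and 1.32 in untransfected cells, 2.11, 2.39 and 2.20 with control siRNA, 2.74, 2.58 and 2.46 with CTNNB1 siRNA and 2.43, 2.21 and 2.12 with FZD8_CRD. All treated KIF11 arrays stood above the untransfected ones, which were highest on slide 2. Against untransfected cells KIF11 differed by 1.27 (adjusted p = 0.000113) with control siRNA and 1.66 (adjusted p = 7.44e-07) with FZD8_CRD, and with Wnt3a in both arms by 0.76 (adjusted p = 0.0111) and 0.78 (adjusted p = 0.00136), each with SE 0.17.

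KIF18A, a motor that dampens chromosome movements, read -1.94, -1.58 and -1.29 in untransfected cells, -0.45, -0.59 and -0.44 with control siRNA, -0.77, -0.57 and -0.73 with CTNNB1 siRNA and 0.04, 0.26 and -0.44 with FZD8_CRD. KIF18A was lowest on the untransfected arrays, with no overlap, and every FZD8_CRD array but that of slide 3 was above all siRNA arrays. The KIF18A signals with Wnt3a were -1.17, -0.37 and -1.24 in untransfected cells, -0.34, -0.29 and -0.25 with control siRNA, -0.23, -0.34 and -0.55 with CTNNB1 siRNA and -0.08, -0.20 and -0.31 with FZD8_CRD. KIF18A did not rise above the highest untransfected array (slide 2) with CTNNB1 siRNA on slide 3. KIF18A differences from untransfected cells, each with SE 0.20, were 1.11 (adjusted p = 0.000598) for control siRNA and 1.56 (adjusted p = 4.42e-06) for FZD8_CRD, and under Wnt3a 0.63 (adjusted p = 0.0492) and 0.73 (adjusted p = 0.00622). NEK2, a kinase that separates centrosomes, read -0.78, -0.37 and -0.24 in untransfected cells, 0.25, 0.23 and 0.24 with control siRNA, 0.17, 0.38 and 0.02 with CTNNB1 siRNA and 1.09, 1.17 and 0.40 with FZD8_CRD. The untransfected NEK2 arrays lay apart at the bottom, and FZD8_CRD was above every siRNA array. Under Wnt3a, NEK2 signals were -0.49, 0.15 and -0.69 in untransfected cells, 0.28, 0.26 and 0.10 with control siRNA, 0.48, 0.43 and -0.01 with CTNNB1 siRNA and 0.27, 0.37 and -0.08 with FZD8_CRD. NEK2 did not rise above the highest untransfected array (slide 2) with control siRNA, CTNNB1 siRNA and FZD8_CRD on slide 3. The differences of NEK2 from untransfected cells were 0.70 (adjusted p = 0.0213) with control siRNA and 1.35 (adjusted p = 4.33e-05) with FZD8_CRD, and in Wnt3a medium 0.56 (adjusted p = 0.107, not called) and 0.53 (adjusted p = 0.0562, not called), with SE 0.21 for each.

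ASPM, which focuses the spindle poles, read 2.19, 2.29 and 2.49 in untransfected cells, 3.11, 3.11 and 3.22 with control siRNA, 3.25, 3.39 and 3.23 with CTNNB1 siRNA and 3.85, 3.99 and 3.25 with FZD8_CRD. ASPM was lowest on the untransfected arrays, with no overlap, and every FZD8_CRD array but that of slide 3 was above all siRNA arrays. ASPM in Wnt3a medium read 2.43, 3.08 and 2.19 in untransfected cells, 3.12, 3.18 and 3.09 with control siRNA, 3.60, 3.48 and 3.26 with CTNNB1 siRNA and 3.34, 3.27 and 3.06 with FZD8_CRD. ASPM did not rise above the highest untransfected array (slide 2) with FZD8_CRD on slide 3. Against untransfected cells ASPM differed by 0.83 (adjusted p = 0.0026) with control siRNA and 1.38 (adjusted p = 6.55e-06) with FZD8_CRD, and with Wnt3a in both arms by 0.56 (adjusted p = 0.0575, not called) and 0.66 (adjusted p = 0.007), each with SE 0.18. PRC1, which bundles the central spindle, read 2.72, 2.99 and 3.28 in untransfected cells, 3.97, 3.90 and 4.10 with control siRNA, 4.0, 4.23 and 4.14 with CTNNB1 siRNA and 4.62, 4.77 and 4.18 with FZD8_CRD. The untransfected PRC1 arrays lay apart at the bottom, and every FZD8_CRD array but that of slide 3 was above all siRNA arrays. The PRC1 signals with Wnt3a were 3.19, 3.84 and 3.10 in untransfected cells, 3.93, 4.07 and 4.15 with control siRNA, 4.43, 4.32 and 4.41 with CTNNB1 siRNA and 4.13, 4.12 and 4.04 with FZD8_CRD. All treated PRC1 arrays stood above the untransfected ones, which were highest on slide 2. PRC1 differences from untransfected cells, each with SE 0.16, were 0.99 (adjusted p = 0.000391) for control siRNA and 1.53 (adjusted p = 9.86e-07) for FZD8_CRD, and under Wnt3a 0.67 (adjusted p = 0.0154) and 0.72 (adjusted p = 0.00184). The other 9 spindle genes were called in all 4 comparisons, with changes of 0.85 to 1.14 for control siRNA, 1.5 to 1.74 for FZD8_CRD and, with Wnt3a, 0.66 to 0.85 and 0.70 to 1.10.

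Cytokinesis was covered by ANLN and ECT2. ANLN, a scaffold of the contractile ring, read 0.25, 0.53 and 0.84 in untransfected cells, 1.74, 1.72 and 1.87 with control siRNA, 1.78, 1.98 and 1.84 with CTNNB1 siRNA and 2.54, 2.73 and 2.34 with FZD8_CRD. ANLN was lowest on the untransfected arrays, with no overlap, and FZD8_CRD was above every siRNA array. Under Wnt3a, ANLN signals were 0.86, 1.63 and 0.72 in untransfected cells, 1.77, 2.09 and 1.97 with control siRNA, 2.43, 2.14 and 2.00 with CTNNB1 siRNA and 2.33, 2.26 and 2.22 with FZD8_CRD. No other ANLN array came down to the untransfected ones, which were highest on slide 2. The differences of ANLN from untransfected cells were 1.24 (adjusted p = 0.000186) with control siRNA and 2.00 (adjusted p = 2.46e-07) with FZD8_CRD, and in Wnt3a medium 0.87 (adjusted p = 0.00791) and 1.20 (adjusted p = 4.67e-05), with SE 0.18 for each. ECT2, which activates RHOA at the ring, read -0.62, -0.72 and -0.54 in untransfected cells, 0.15, -0.01 and 0.12 with control siRNA, 0.22, 0.31 and 0.13 with CTNNB1 siRNA and 1.06, 1.02 and 0.43 with FZD8_CRD. The untransfected ECT2 arrays lay apart at the bottom, and FZD8_CRD was above every siRNA array. ECT2 in Wnt3a medium read -0.95, -0.61 and -0.51 in untransfected cells, -0.13, 0.39 and 0.18 with control siRNA, 0.57, 0.46 and 0.17 with CTNNB1 siRNA and 0.57, 0.49 and 0.47 with FZD8_CRD. All treated ECT2 arrays stood above the untransfected ones, which were highest on slide 3. Against untransfected cells ECT2 differed by 0.71 (adjusted p = 0.00254) with control siRNA and 1.46 (adjusted p = 8.69e-07) with FZD8_CRD, and with Wnt3a in both arms by 0.83 (adjusted p = 0.00452) and 1.20 (adjusted p = 9.12e-06), each with SE 0.15.

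Exit from mitosis was covered by CDC20 and PTTG1. CDC20, which activates the anaphase-promoting complex, read 1.41, 1.84 and 1.87 in untransfected cells, 3.04, 2.96 and 2.99 with control siRNA, 2.74, 2.99 and 2.63 with CTNNB1 siRNA and 3.47, 3.59 and 3.06 with FZD8_CRD. CDC20 was lowest on the untransfected arrays, with no overlap, and FZD8_CRD was above every siRNA array. The CDC20 signals with Wnt3a were 1.59, 2.28 and 1.63 in untransfected cells, 2.72, 3.04 and 2.78 with control siRNA, 3.09, 2.98 and 2.65 with CTNNB1 siRNA and 3.03, 2.96 and 2.76 with FZD8_CRD. No other CDC20 array came down to the untransfected ones, which were highest on slide 2. CDC20 differences from untransfected cells, each with SE 0.18, were 1.29 (adjusted p = 0.000112) for control siRNA and 1.67 (adjusted p = 8.12e-07) for FZD8_CRD, and under Wnt3a 1.02 (adjusted p = 0.00317) and 1.09 (adjusted p = 8.12e-05). PTTG1 (securin), which restrains the enzyme that parts sister chromatids, was called in all 4 comparisons, by 0.86 and 1.30 without Wnt3a and 0.71 and 0.81 with it.

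Regulators of the programme were among the members. FOXM1, the factor that activates G2/M genes, read -0.37, 0.17 and 0.37 in untransfected cells, 1.26, 1.17 and 1.40 with control siRNA, 1.15, 1.39 and 1.05 with CTNNB1 siRNA and 1.80, 1.90 and 1.78 with FZD8_CRD. The untransfected FOXM1 arrays lay apart at the bottom, and FZD8_CRD was above every siRNA array. Under Wnt3a, FOXM1 signals were 0.14, 0.84 and 0.23 in untransfected cells, 1.17, 1.43 and 1.27 with control siRNA, 1.78, 1.56 and 1.47 with CTNNB1 siRNA and 1.72, 1.76 and 1.49 with FZD8_CRD. All treated FOXM1 arrays stood above the untransfected ones, which were highest on slide 2. The differences of FOXM1 from untransfected cells were 1.22 (adjusted p = 0.000139) with control siRNA and 1.77 (adjusted p = 4.1e-07) with FZD8_CRD, and in Wnt3a medium 0.89 (adjusted p = 0.0054) and 1.25 (adjusted p = 1.58e-05), with SE 0.17 for each. MYBL2, the factor that joins the MuvB core in cycling cells, read -2.09, -1.80 and -1.61 in untransfected cells, -0.46, -0.62 and -0.48 with control siRNA, -0.68, -0.60 and -1.0 with CTNNB1 siRNA and -0.14, -0.03 and 0.24 with FZD8_CRD. MYBL2 was lowest on the untransfected arrays, with no overlap, and FZD8_CRD was above every siRNA array. MYBL2 in Wnt3a medium read -1.59, -0.95 and -1.62 in untransfected cells, -0.63, -0.50 and -0.55 with control siRNA, -0.10, -0.54 and -0.52 with CTNNB1 siRNA and 0.20, 0.18 and -0.08 with FZD8_CRD. No other MYBL2 array came down to the untransfected ones, which were highest on slide 2. Against untransfected cells MYBL2 differed by 1.31 (adjusted p = 8.41e-05) with control siRNA and 1.85 (adjusted p = 2.54e-07) with FZD8_CRD, and with Wnt3a in both arms by 0.83 (adjusted p = 0.0071) and 1.49 (adjusted p = 2.92e-06), each with SE 0.17.

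Chromosome structure was covered by TOP2A and MKI67. TOP2A, which untangles DNA, read 1.07, 1.06 and 1.45 in untransfected cells, 2.29, 2.30 and 2.42 with control siRNA, 2.56, 2.70 and 2.63 with CTNNB1 siRNA and 3.22, 3.26 and 2.40 with FZD8_CRD. The untransfected TOP2A arrays lay apart at the bottom, and every FZD8_CRD array but that of slide 3 was above all siRNA arrays. The TOP2A signals with Wnt3a were 1.41, 2.02 and 1.40 in untransfected cells, 2.31, 2.66 and 2.46 with control siRNA, 3.02, 2.95 and 2.84 with CTNNB1 siRNA and 2.68, 2.57 and 2.60 with FZD8_CRD. All treated TOP2A arrays stood above the untransfected ones, which were highest on slide 2. TOP2A differences from untransfected cells, each with SE 0.18, were 1.14 (adjusted p = 0.000298) for control siRNA and 1.76 (adjusted p = 7.17e-07) for FZD8_CRD, and under Wnt3a 0.87 (adjusted p = 0.00817) and 1.01 (adjusted p = 0.000246). MKI67, a widely used marker of cycling cells, read 0.81, 0.94 and 1.35 in untransfected cells, 2.05, 2.03 and 1.84 with control siRNA, 1.72, 2.16 and 1.27 with CTNNB1 siRNA and 2.20, 2.24 and 1.78 with FZD8_CRD. MKI67 did not rise above the highest untransfected array (slide 3) with CTNNB1 siRNA on slide 3, and every FZD8_CRD array but that of slide 3 was above all siRNA arrays. Under Wnt3a, MKI67 signals were 1.38, 1.90 and 0.71 in untransfected cells, 2.00, 1.70 and 1.40 with control siRNA, 2.16, 1.98 and 1.31 with CTNNB1 siRNA and 1.84, 1.86 and 1.15 with FZD8_CRD. MKI67 did not rise above the highest untransfected array (slide 2) with control siRNA on slides 2 and 3, with CTNNB1 siRNA on slide 3, and with FZD8_CRD on slides 1, 2 and 3. The differences of MKI67 from untransfected cells were 0.94 (adjusted p = 0.0216) with control siRNA and 1.04 (adjusted p = 0.00603) with FZD8_CRD, and in Wnt3a medium 0.37 (adjusted p = 0.501, not called) and 0.29 (adjusted p = 0.469, not called), with SE 0.29 for each. With the mean of its probes, the MKI67 differences with Wnt3a were 0.57 (SE 0.23, adjusted p = 0.123) for control siRNA and 0.52 (SE 0.23, adjusted p = 0.0763) for FZD8_CRD, so they depended on the probe. With the brightest probe MKI67 had the widest SE of the 47 and a Pearson r of 0.797 with the members' median profile, beside 0.995 for BUB1, the highest.

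**Figure D3:**
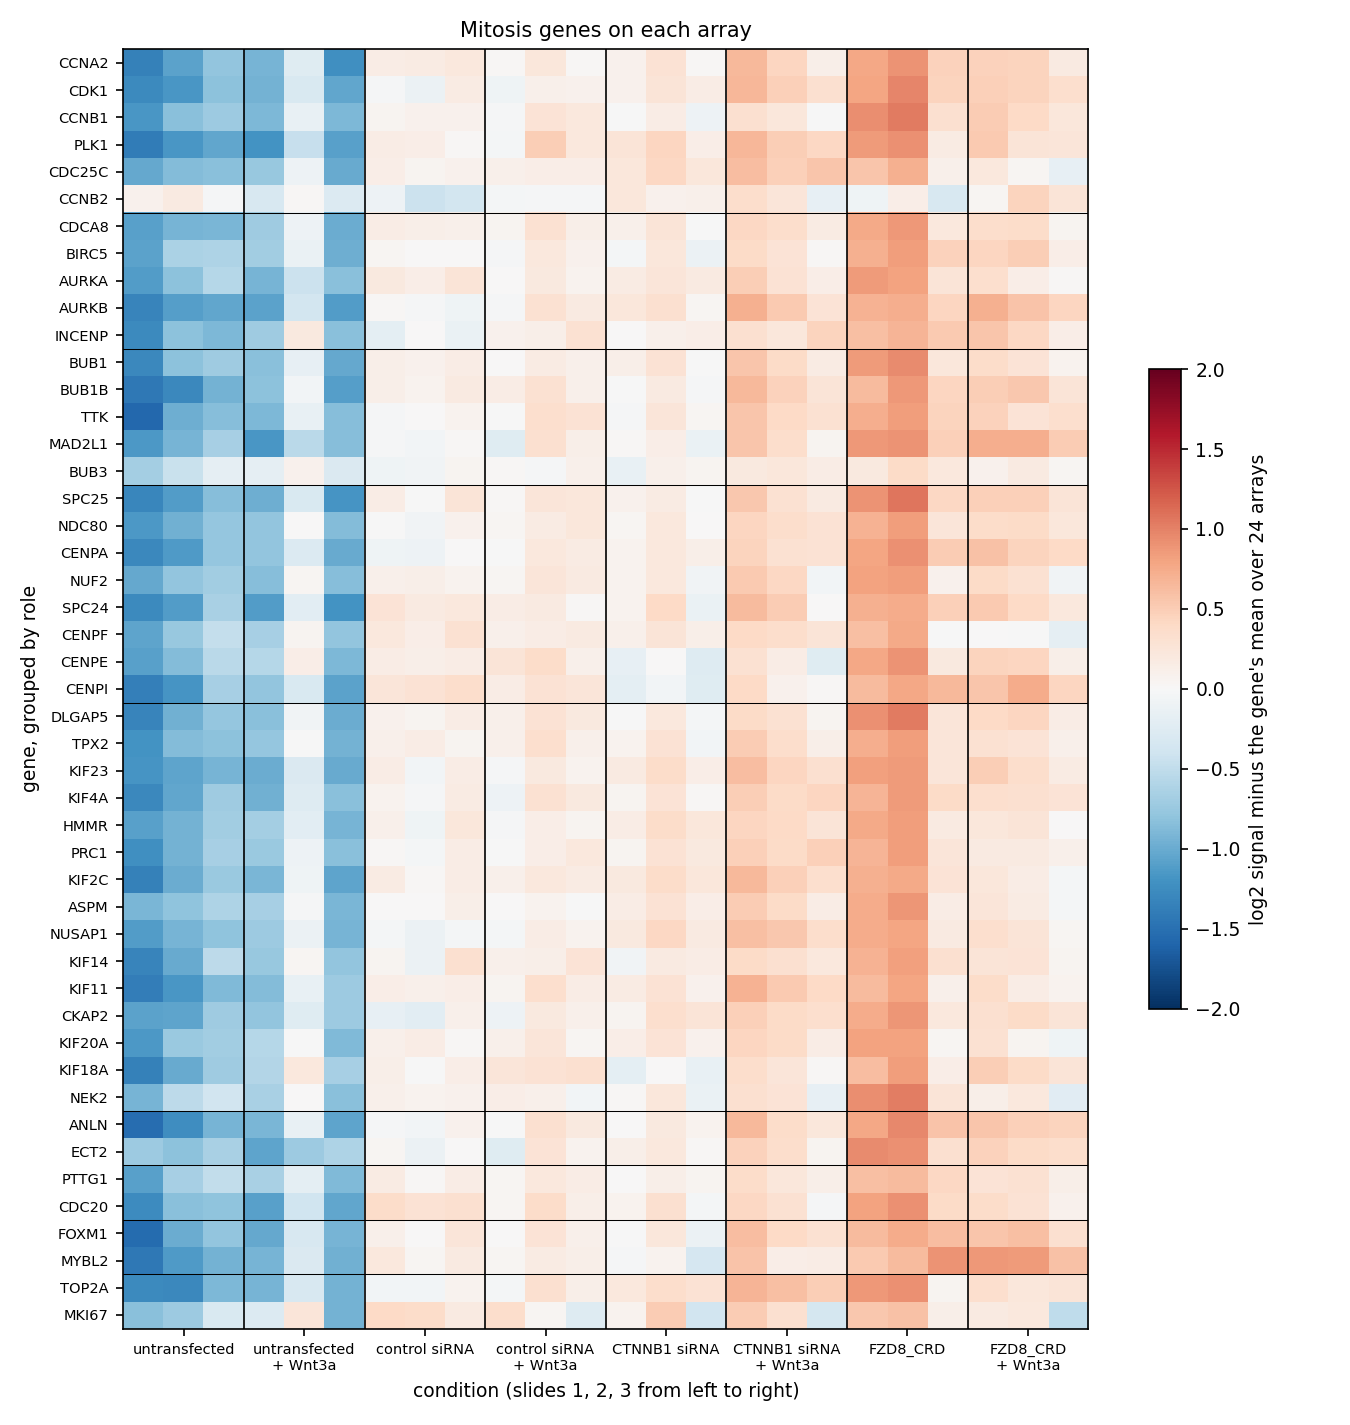
Log2 signal of each of the 47 mitosis genes (rows, grouped by role) minus its mean over 24 arrays, on each array (columns, slides 1 to 3 within a condition), blue below and red above the mean. Untransfected arrays are blue in most rows except CCNB2, and the untransfected array with Wnt3a on slide 2 is paler.

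**Figure D4:**
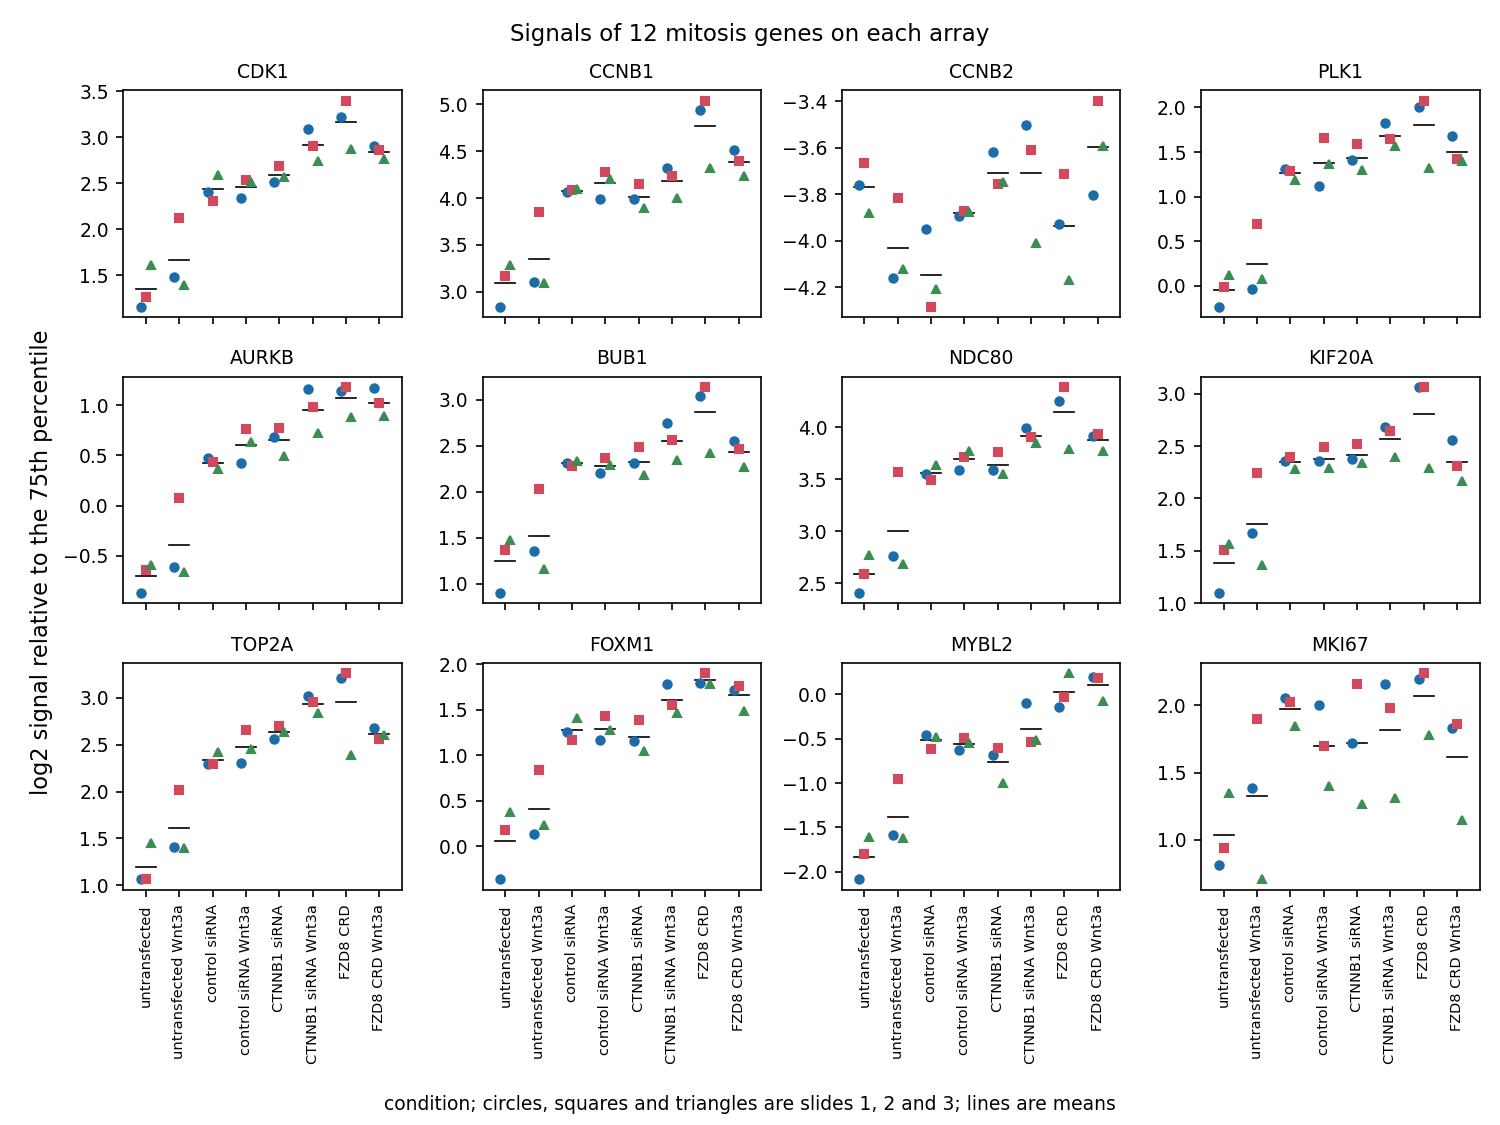
Log2 signal of 12 mitosis genes on each array, where 0 is the upper quartile of the array, with 1 panel per gene, lines for the means of 3 arrays and symbols for slides. Each panel has its own vertical scale, so levels are not to be compared between genes.

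Wnt3a was tested within each treatment, to read its own effect on the members. In untransfected cells 1 of 47 was called higher and 0 lower, where 5.6% of all genes were called in either direction. The called gene was KIF18A, whose Wnt3a arrays all lay above those without, narrowly on slide 3, with a change of 0.68 (SE 0.20, adjusted p = 0.0489). The next smallest adjusted p was that of KIF11, with a difference of 0.56 (adjusted p = 0.0619, not called), followed by BUB1B with 0.56 (adjusted p = 0.0839, not called). An unadjusted p under 0.05, for which no share of all genes is given, was found for 16 members. The median change of the 47 was 0.32 beside 0.01 for all genes. Within slides 1, 2 and 3 the members' median was 0.40, 0.82 and -0.18, so slide 3 went the other way, and 3 of 47 members were higher on every slide, as were 19.9% of all genes. Spike-in scaling moved the median of all genes to -0.38 and turned the members' median to -0.08, which was 0.30 relative to all genes.

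The count of 1 in untransfected cells rested on single arrays. It was 32 without slide 3, 9 without its untransfected array alone and 10 without its Wnt3a array alone. Without the Wnt3a array of slide 1 it was 2, and it was 0 without slide 1 or 2 as a whole, without the untransfected array of slide 1 or 2, or without the Wnt3a array of slide 2. With the slide as a block it was 4.

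With control siRNA, limma called 0 of 47 members in response to Wnt3a, where 2.11% of all genes were called, and 0 had an unadjusted p under 0.05. With CTNNB1 siRNA limma called 0 of 47, where 0.0406% of all genes were, and 4 had an unadjusted p under 0.05. The members' medians were 0.06 and 0.23, beside 0.02 and 0.03 for all genes. With control siRNA the medians within slides were -0.06, 0.22 and 0.01, and 13 of 47 members were higher on every slide, as were 25.4% of all genes. With CTNNB1 siRNA they were 0.43, 0.12 and 0.17, and 42 of 47 members were higher on every slide, as were 29% of all genes. Whether β-catenin knockdown changed the Wnt3a response was tested as an interaction, in which limma called 0 members, where 0.0162% of all genes were called, and 0 had an unadjusted p under 0.05. The median difference between the responses was 0.15. Spike-in scaling moved all genes to -0.28 and with them the members to -0.14, a turn of sign. The members' 0.14 relative to all genes is nearly fixed under such scaling and does not offset this turn. Without the array of CTNNB1 siRNA with Wnt3a of slide 3, limma again called 0 members in the response and 0 in the interaction. With control siRNA alone spike-in scaling moved the Wnt3a difference of all genes to 0.18, and the members were 0.04 relative to it.

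With FZD8_CRD present, 1 of 47 members was called lower with Wnt3a and 0 higher, where 8.29% of all genes were called in either direction. The called gene was NEK2, with no overlap between the groups, although slide 3 without Wnt3a came within reach of the arrays with it, and a change of -0.70 (SE 0.21, adjusted p = 0.0449). AURKA and CENPF came next, with -0.48 (adjusted p = 0.0629, not called) and -0.51 (adjusted p = 0.106, not called). An unadjusted p under 0.05, again with no share of all genes, was found for 17 members. The median change was -0.33 beside 0.02 for all genes, and within slides 1, 2 and 3 it was -0.34, -0.53 and -0.15. Within slides, 38 of 47 members were lower on every slide, as were 20.1% of all genes. With the slide as a block 3 were called. Without slide 3 the count was 12, without its FZD8_CRD array alone 23, and without any other slide or array of these conditions 0.

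The Wnt3a response with FZD8_CRD was set against that without it in an interaction test. Limma called 0 of 47 members, where 0.073% of all genes were called. An unadjusted p under 0.05 was found for 39 members, without a share of all genes to set beside it. The median of this difference over the 47 was -0.68 beside 0.01 for all genes, and the smallest adjusted p was 0.138. The test called 35 members without slide 3, 29 without its FZD8_CRD array alone and 4 without its untransfected array alone. Without any 1 of the 3 untransfected arrays with Wnt3a it called 0. With all arrays, a Wnt3a response that differs between the 2 conditions was therefore not shown for any member. Spike-in scaling moved all genes to 0.31 and left the members at -0.68 relative to them.

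Cell type markers also responded to Wnt3a on these arrays, given in the order untransfected, control siRNA, CTNNB1 siRNA and FZD8_CRD. Of all 24648 genes, 738, 269, 9 and 1074 were called higher with Wnt3a and 643, 251, 1 and 970 lower. Of 6 fibroblast markers tested, 5, 4, 0 and 4 were called higher with Wnt3a and none lower. COL1A1, a collagen chain, rose by 1.86 in untransfected cells, 2.19 with control siRNA and 2.65 with FZD8_CRD. Of 9 hepatocyte markers 0, 0, 0 and 2 were called higher and 0, 0, 0 and 1 lower, those with FZD8_CRD being TTR (2.62) and APOA1 (2.22), which were higher, and APOB (-2.15), which was lower. The FZD8_CRD array of slide 3, which went against its label, departed from the other FZD8_CRD arrays in these genes. TTR read 1.55, 1.21 and 5.11 with FZD8_CRD and 5.19, 5.30 and 5.23 with Wnt3a added. APOA1 read 0.45, -0.01 and 3.24, then 3.57, 3.48 and 3.28, and APOB 3.10, 3.06 and 1.12, then 0.14, -0.04 and 0.71. Of 5 biliary or progenitor markers 1, 0, 0 and 0 were higher and 1, 0, 0 and 0 lower, of 4 leukocyte markers 0, 0, 0 and 0 higher and 1, 0, 0 and 0 lower, and of 5 endothelial markers 0, 0, 0 and 1 higher and 0, 0, 0 and 1 lower. The endothelial marker called higher was TEK, which read -6.13, -6.13 and -5.57 with FZD8_CRD alone, at or near the lowest value for a dim spot. That call is not read as a change either. Between CTNNB1 siRNA and control siRNA, without and with Wnt3a, 1 and 4 fibroblast markers were lower and 0 and 1 hepatocyte markers higher. In the same order, 1 and 1 biliary or progenitor markers were higher and 0 and 2 lower, and 1 and 1 leukocyte markers were lower. Endothelial markers had 1 and 0 lower. Of all 24648 genes, 1085 and 1006 were called higher and 1519 and 1602 lower. The fibroblast marker without Wnt3a was PDGFRB, well above background on only 7 of 24 arrays. It read -6.13, -6.13 and -5.66 with CTNNB1 siRNA, so its call is not read as a change. The part of these markers in the mitosis gene results was not tested.

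CTNNB1 siRNA was compared with control siRNA to read the effect of β-catenin beyond transfection. Without Wnt3a limma called 0 of 47 members, where 10.6% of all genes were called, and 2 had an unadjusted p under 0.05. With Wnt3a it called 0 of 47, where 10.6% of all genes were, and 8 had an unadjusted p under 0.05. Within slides, 15 of 47 members were higher on every slide, as were 25.1% of all genes without Wnt3a, and 28 of 47 members were higher on every slide, as were 22.3% of all genes with it. The members' medians were 0.03 and 0.22, and the smallest adjusted p was 0.088 and 0.084. Fits to only the arrays compared called 4 and 6 members, the slide block 1 and 0. With Wnt3a, leaving out slide 3 called 1, and leaving out only its array of CTNNB1 siRNA 0. Spike-in scaling moved all genes to -0.21 with Wnt3a, and the members were 0.23 relative to them.

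Other cell cycle genes were counted in the same 4 comparisons, control siRNA and FZD8_CRD without Wnt3a and then both with it, where 12.3%, 19.7%, 5.44% and 18.2% of all genes were called higher and 10.1%, 22.2%, 3.59% and 18.9% lower. Of 63 further G2/M and mitosis genes, 60, 62, 45 and 54 were called higher and none lower. CENPU, of the inner kinetochore, rose by 1.19 with control siRNA, and HJURP, which deposits CENPA, by 1.34. Of 36 replication genes, 36, 36, 27 and 35 were higher and none lower, with median changes of 0.97, 1.27, 0.65 and 1.07. Of 14 genes of the anaphase-promoting complex, 7, 9, 3 and 8 were higher and 1, 0, 0 and 0 lower. Of 12 genes of the MuvB core, DREAM and the pocket proteins, 6, 8, 1 and 7 were higher and 0, 1, 0 and 0 lower. Of 13 genes of G1 control, 7, 10, 4 and 5 were higher and 0, 1, 0 and 1 lower, and of 14 p53 targets, 4, 6, 0 and 3 were higher and 1, 1, 1 and 1 lower.

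CDKN1A, the p21 inhibitor of cell cycle kinases, read 1.21, 1.13 and 0.99 in untransfected cells, 1.97, 1.92 and 1.76 with control siRNA and 1.88, 1.91 and 1.63 with FZD8_CRD. It was thus lowest where the mitosis genes were lowest, with no overlap. Its changes were 0.77 (SE 0.11, adjusted p = 0.000126) and 0.69 (adjusted p = 3.61e-05), and with Wnt3a 0.68 (adjusted p = 0.00199) and 0.56 (adjusted p = 0.000397). CCND1, the cyclin of G1 and a known β-catenin target, read 0.19, 0.36 and 0.08 with control siRNA and 1.01, 1.09 and 1.19 with CTNNB1 siRNA. The groups did not overlap, and CCND1 was higher after the knockdown by 0.89 (SE 0.13, adjusted p = 0.000163), and with Wnt3a by 0.71 (adjusted p = 0.00104).

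Outside the lists, the 10 genes with the profile closest to the members' median over the 24 arrays were STMN1, ERCC6L, PTTG2, PARPBP, UBE2T, TRIP13, CCDC77, CEP128, SHCBP1 and CENPP, with Pearson r from 0.981 to 0.993. The r values describe arrays of shared conditions and come with no test. STMN1 destabilises microtubules, and TRIP13 acts in checkpoint silencing.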

How the data were processed

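Intensity values are, per the file headers, Agilent Feature Extraction spot signals after background subtraction and detrending, and the submitters' notes give version 10.7.3.1. Log2 values deposited by the authors are centred per probe, and the study's methods give 75th percentile scaling. Centred alike, they lay a median of 0.000522 from quantile normalized signals and 0.0268 from 75th percentile scaled ones over 25443 probes, so they are close to the former, and they were used as an alternative only. Here each of 24 arrays was scaled to its 75th percentile, floored at 1.43% of it and put on a log2 scale. Outlier spots were dropped (at most 1.04% of an array), replicate spots were averaged, and the brightest kept probe stood for a gene. A gene was tested where 1 condition or more had it flagged well above background on each of its 3 arrays, and that flag was set for 58.3% to 66.5% of probes per array. Probes were joined to symbols through RefSeq transcripts, and genes without a matched probe and some cell type markers are not reported here.

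One limma fit (lmFit, contrasts.fit, eBayes with trend) covered 8 conditions and 12 comparisons over all 24648 genes, with Benjamini-Hochberg adjustment and calls at an adjusted p under 0.05. With 3 arrays per condition, precision is limited by their number. Counts of members with an unadjusted p under 0.05 come without the share of all genes at that threshold and are not calls. Members and lists were chosen with earlier results of these data known. Values on every array are given for 14 members chosen by role, for the 5 members with the smallest p in each comparison with calls, and for CCNB2. Genes of other lists are given by counts and a few of those with the smallest p, and genes outside the lists by Pearson r with the members' median profile. Alternatives were other scalings, filters, probe choices, designs and the deposited values. Tools were R 4.3.3, limma 3.58.1, Python 3.11.15 and matplotlib 3.10.9.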

Additional observations from a re-analysis of the deposited data

How the results depend on the processing

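No called member changed sign under any alternative. In comparisons with untransfected cells 2 members that were not called did. CCNB2 with FZD8_CRD turned to 0.07 under quantile normalization and 0.07 in the deposited values, which are nearly the same values, and MKI67 with FZD8_CRD and Wnt3a to -0.03 without the untransfected array with Wnt3a of slide 3. Over all alternatives and called members, 870 of 874 single calls were kept for FZD8_CRD against untransfected cells and 780 of 874 for control siRNA. With Wnt3a these were 746 of 817 and 523 of 779. Spike-in scaling, which rests on 7 probes, left 7 members called for control siRNA without Wnt3a, 7 with it, and 17 for FZD8_CRD with Wnt3a. Leaving out arrays or slides gave 8 to 46 calls for control siRNA without Wnt3a, 0 to 44 with it, and 24 to 46 for FZD8_CRD with Wnt3a. A figure legend in the study's supplement gives thresholds of p under 0.01 and a fold change over 1.5 or under 0.7. Applied here to unadjusted p, these called 45 and 46 members for control siRNA and FZD8_CRD without Wnt3a and 42 and 41 with it. A fit to only the conditions compared called 0 for control siRNA with Wnt3a and 45 without it. For FZD8_CRD such a fit called 34 with Wnt3a and 46 without it. Fewer arrays estimate the spread in these fits, and the cause of the differing counts was not tested.

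The response to Wnt3a in untransfected cells had 2 calls under quantile normalization, 0 under spike-in scaling, 0 under normexp background correction, 2 in the deposited values, 0 with no filter, 0 with the mean of probes and 0 with only the conditions compared, and leaving out arrays gave 0 to 32. With FZD8_CRD the response to Wnt3a had 0 calls under quantile normalization, 0 under spike-in scaling, 0 in the deposited values, 0 with no filter, 0 with the mean of probes and 0 with only the conditions compared, and leaving out arrays gave 0 to 23. The interaction of Wnt3a with FZD8_CRD ranged over 0 to 35 calls. For CTNNB1 siRNA against control siRNA, 1 member was called under normexp background correction and 4 in a fit to only the conditions compared without Wnt3a. With Wnt3a such a fit called 6, and leaving out arrays gave 0 to 1. The cause of these moves was not tested.

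Arrays of the same slide share a replicate number, and of 84 same-numbered pairs 82 had correlations above 0.1 of their deviations from the condition means, where treating the number as a pairing required this of every pair. The mean was 0.384 for same-numbered and -0.191 for other pairs, and each of 24 arrays lay closest to its own number, so arrays of a slide did deviate together. A block for the replicate number gave counts that were 4 for Wnt3a in untransfected cells, 3 for Wnt3a with FZD8_CRD and 1 for CTNNB1 siRNA without Wnt3a. All 47 mitosis genes tested were well above background on every array.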
